A study of Mus musculus with 20 samples.

Results

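The transcripts described here are those of 10 heat shock chaperone genes in mouse RPE-choroid tissue, *Hspa1a*, *Hspa1b*, *Hsph1*, *Dnajb1*, *Hspb1*, *Hsp90aa1*, *Hspa8*, *Hspd1*, *Hspe1* and *Bag3*, out of 24411 genes in the expression table. They were taken by gene symbol, because most of them stood higher in VAS *Stra6-/-* than in VAS WT libraries of the same series, and the summed value of the paralogs *Hspa1a* and *Hspa1b* was followed beside them. All 10 passed the filter on low values, as did 18807 genes in all. The study examined how the eye responds to vitamin A status when STRA6, the receptor that brings retinol from the blood into the retinal pigment epithelium (RPE), is missing. The 4 groups of 5 samples were C57BL/6 mice, WT or with both *Stra6* alleles deleted, which were weaned at about 28 days from dams on standard chow and then kept for 12 weeks on a vitamin A sufficient (VAS, 4 IU/g) or a vitamin A deficient (VAD, 0 IU/g) diet. Per the methods of the study, eyecups of the same mouse were combined into a sample after the anterior segment had been removed and the neural retina peeled off, and the WT mice came from a supplier while the *Stra6-/-* mice were bred by the study, so that colony and genotype cannot be told apart. Values are gene counts divided by 1 size factor per library, called normalized values, without scaling for gene length.

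Heat shock chaperones bind unfolded or partly folded proteins and return them to their fold or pass them on for degradation. HSP70 proteins take up and release their clients with the help of J-domain proteins, which bring the client and start ATP hydrolysis, and of nucleotide exchange factors, which release it. HSP90 acts later, on proteins near their final fold, small heat shock proteins hold aggregation-prone proteins without ATP, and the chaperonin ring of HSP60 and HSP10 folds proteins inside mitochondria. Under proteotoxic stress the transcription factor HSF1 binds heat shock elements, repeats of the unit GAA in alternating orientation, and induces many of these genes, while others are also made at a high level in unstressed cells. The RPE takes up shed photoreceptor outer segments every day and is rich in oxidants, a setting in which chaperones have been much studied.

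Promoter sequences were available for 8 of the 10 genes from RefSeq (GRCm38.p6), and the 250 bases before the transcription start were searched on both strands for the unit pairs GAANNTTC and TTCNNGAA and for the triplet GAANNTTCNNGAA, which reads TTCNNGAANNTTC on the other strand. The windows of *Hspa1a* (chr17:34972157-34972406, minus strand) and *Hspa1b* (chr17:34959239-34959488, minus strand) are shown because reads of these near-identical genes carry the most extreme values below, and that of *Hspb1* (chr5:135887669-135887918, plus strand) because *Hspb1* separated the groups in another way. Capitals mark GAANNTTC.
Hspa1a: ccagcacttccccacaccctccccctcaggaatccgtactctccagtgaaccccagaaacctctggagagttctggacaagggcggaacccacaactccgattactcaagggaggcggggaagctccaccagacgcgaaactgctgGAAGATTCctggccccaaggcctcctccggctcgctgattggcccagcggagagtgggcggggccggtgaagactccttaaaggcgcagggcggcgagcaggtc
Hspa1b: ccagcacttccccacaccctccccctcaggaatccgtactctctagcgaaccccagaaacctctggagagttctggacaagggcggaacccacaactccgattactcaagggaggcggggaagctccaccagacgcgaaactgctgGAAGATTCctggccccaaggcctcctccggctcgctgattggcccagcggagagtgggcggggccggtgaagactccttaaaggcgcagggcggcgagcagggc
Hspb1: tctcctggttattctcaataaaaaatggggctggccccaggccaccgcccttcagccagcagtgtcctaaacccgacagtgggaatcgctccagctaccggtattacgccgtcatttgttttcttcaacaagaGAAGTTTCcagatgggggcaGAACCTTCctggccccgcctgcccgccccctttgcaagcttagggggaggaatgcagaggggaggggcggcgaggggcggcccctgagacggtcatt
The windows of *Hspa1a* and *Hspa1b* were 98.8% identical, with a single GAANNTTC beginning 104 bases before the start of each gene. *Hspb1* had 2 matches, beginning 117 and 97 bases before the start. GAANNTTC was present in 5 of the 8 genes (*Hspa1a*, *Hspa1b*, *Hspb1*, *Hspd1* and *Hspe1*) and in 6.69% of all 32851 windows of the same length. TTCNNGAA was present in 3 of the 8 genes (*Hspd1*, *Hspe1* and *Hsph1*) and in 7.17% of all windows. Some genes had several starts, so the 8 genes had 11 windows. Of these 11, GAANNTTC was present in 5, TTCNNGAA in 4 and the triplet in 2.

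The triplet GAANNTTCNNGAA was present in 0.466% of all windows and, among the 8 genes, in those of *Hspd1* and *Hspe1*. Both windows hold the same site, since *Hspd1* (chromosome 1, 55077835 to 55088243, minus strand) and *Hspe1* (chromosome 1, 55088132 to 55091307, plus strand) are transcribed head to head and their annotated ends overlap by 112 bases. The site lies at chr1:55088053-55088082 on the plus strand, between 95 and 66 bases before the RefSeq start of *Hspe1*, which lies downstream of the GENCODE start given here, and inside the first exon of 1 annotated *Hspd1* transcript, and is shown with its 18 matching bases in capitals, which include 2 overlapping triplets and both unit pairs.
Hspe1: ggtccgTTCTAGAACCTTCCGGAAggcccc
The windows of *Bag3* and *Dnajb1* contained none of the 3 patterns. A match is a string of letters and no measurement of binding.

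Facts of the libraries that touch every result come first. Depth ranged from 13331903 to 21878614 reads per library. The normalized value of *Stra6*, the deleted gene, averaged 2591 ± 149 for VAS WT and 629 ± 49.8 for VAS *Stra6-/-* (SD, n = 5 each). It averaged 986 ± 415 for VAD WT and 2163 ± 154 for VAD *Stra6-/-* (SD, n = 5 each), higher by 1.23 on the log2 scale (limma, adjusted p = 3.92e-06), the direction opposite to the label. The summed value of 10 RPE genes was 34645 to 67387 in VAD WT and 521244 to 563543 in VAD *Stra6-/-*. On the VAS diet it was 119216 to 136001 in WT and 128233 to 134569 in *Stra6-/-*. The part of RPE content in the *Stra6* values was not tested. The 5 libraries under the VAD *Stra6-/-* label are therefore called the libraries labelled VAD *Stra6-/-*. The defining RPE gene *Rpe65* was present in every library, at 1107 to 5980 in VAS WT, VAD WT and VAS *Stra6-/-* and at 42395 to 45414 in the libraries labelled VAD *Stra6-/-*. *Krt12*, a keratin of the corneal epithelium, was at 113908 to 400653 in the first 3 groups and at 2179 to 3433 in the libraries labelled VAD *Stra6-/-*. *Xist*, transcribed in females, was at 7.69 to 38.4 in VAS WT and at 15320 to 18052 in VAS *Stra6-/-*, so that sex and genotype cannot be told apart on the VAS diet. In the VAD groups it was at 174 to 11767 in VAD WT and at 3570 to 4280 in the libraries labelled VAD *Stra6-/-*, and the Y-linked *Ddx3y* was at 75.2 to 1133 and at 741 to 970 there. Every library labelled VAD *Stra6-/-* and every VAD WT library thus held transcripts of both kinds, although the methods describe each sample as coming from the same mouse. The lowest VAD WT values, 174 and 75.2, were above the highest *Xist* in VAS WT (38.4) and the highest *Ddx3y* in VAS *Stra6-/-* (1.02). The part of sex or of mixed samples in the VAD comparison was not tested. VAD WT replicates 2 and 4 stood apart from replicates 1, 3 and 5 in most of what follows. The tested differences of the 10 genes are given with and without them, as are the counts of partners in comparisons that contain VAD WT.

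The inducible HSP70 genes *Hspa1a* and *Hspa1b* varied most in proportion to their level among the 10 genes. *Hspa1a* (chromosome 17, 34969190 to 34972156, minus strand, GRCm38) and *Hspa1b* (chromosome 17, 34956436 to 34959238, minus strand) are single-exon genes 9951 bases apart. Their coding parts were 99.4% identical, and 40.5% of the 150-base windows of the *Hspa1b* transcript occur unchanged in *Hspa1a*, so the division of reads between them is uncertain. In VAS WT, replicates 1 to 5 had *Hspa1a* values of 3572, 3659, 3138, 3704 and 3213, and in VAD WT values of 4138, 3807, 3814, 4076 and 4069.7. In VAS *Stra6-/-* they were 15749, 14783, 15208, 14644 and 15398, and in the libraries labelled VAD *Stra6-/-* 794, 831, 879, 964 and 935. The 4 groups did not overlap, with VAS *Stra6-/-* above VAD WT, VAD WT above VAS WT, and the libraries labelled VAD *Stra6-/-* below the rest.

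*Hspa1b* values in VAS WT were 8843, 8151, 8130.4, 8967 and 7718 in replicates 1 to 5, and in VAD WT 9979.6, 7502, 10664, 8341 and 10476. VAS *Stra6-/-* libraries had 45557, 42087, 43342, 43398 and 44525, and in the libraries labelled VAD *Stra6-/-* 746, 778, 832, 686 and 706. The WT groups overlapped, and both *Stra6-/-* groups lay outside them on opposite sides. Within VAD WT, replicates 2 and 4 held the lower values. Mean *Hspa1b* in the libraries labelled VAD *Stra6-/-* was 58.4-fold lower than in VAS *Stra6-/-*, and mean *Hspa1a* 17.2-fold lower.

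Summing the 2 genes removes the question of how reads were divided. The sum averaged 11819 ± 737 for VAS WT against 58938 ± 1718 for VAS *Stra6-/-*, and 13373 ± 1443 for VAD WT against 1630.0 ± 62.8 for the libraries labelled VAD *Stra6-/-* (SD, n = 5 each). The sum in VAS *Stra6-/-* was thus 4.99-fold that in VAS WT, which is a description because this difference chose the genes. In the libraries labelled VAD *Stra6-/-* it was 8.20-fold lower than in VAD WT, a log2 difference of -3.03, with every library below (two-sided p = 0.00794 by an exact permutation test, which 5 against 5 cannot go below). Without VAD WT replicates 2 and 4 the log2 difference was -3.14.

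**Figure D1:**
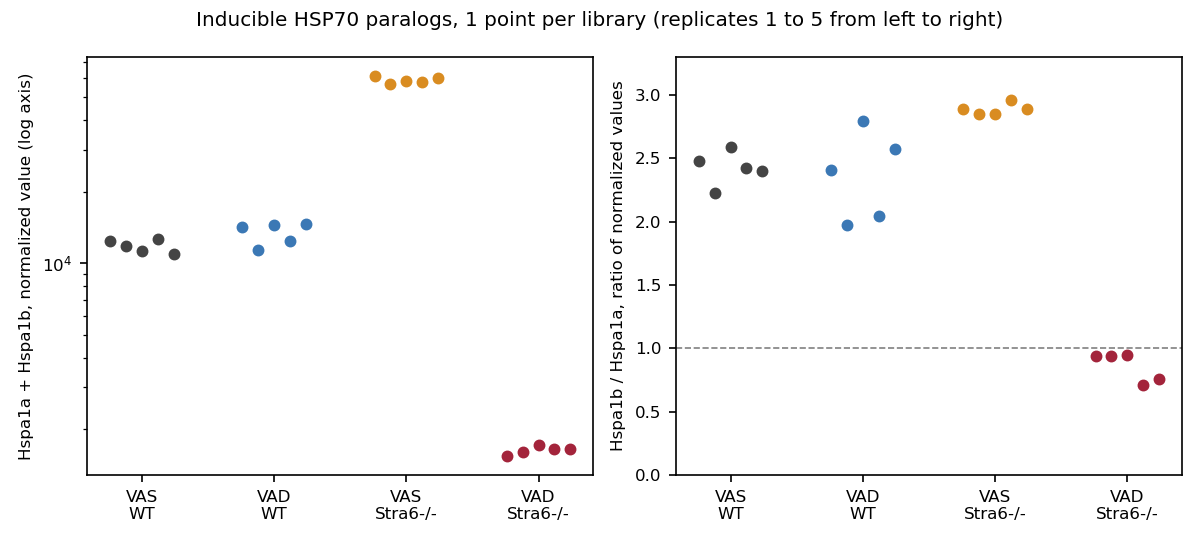
Left, summed normalized value of Hspa1a and Hspa1b (log axis); right, ratio of Hspa1b to Hspa1a (linear axis, dashed line at 1), 1 point per library and 5 per group. The libraries labelled VAD Stra6-/- have sums of 1539 to 1711 and ratios of 0.711 to 0.946, below every other library on both axes.

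The balance between the paralogs also differed between groups. The ratio of *Hspa1b* to *Hspa1a* averaged 2.42 ± 0.132 for VAS WT, 2.36 ± 0.350 for VAD WT and 2.89 ± 0.0471 for VAS *Stra6-/-* (SD, n = 5 each). For the libraries labelled VAD *Stra6-/-* it averaged 0.858 ± 0.115 (SD, n = 5), the only group with less *Hspa1b* than *Hspa1a* in every library. VAS *Stra6-/-*, at 2.85 to 2.96, lay above every VAS WT library, while VAD WT ranged from 1.97 to 2.80. Shared reads move this ratio in an unknown way, and no test was made on it.

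In VAD *Stra6-/-* against VAD WT, the comparison that shares no library with the one the genes were chosen from, both paralogs fell. *Hspa1a* was lower by a log2 difference of -2.18 (standard error 0.07, limma, adjusted p = 1.33e-16), 4.52-fold between means. *Hspa1b* was lower by -3.64 (standard error 0.09, limma, adjusted p = 1.39e-17), 12.5-fold between means. The spread behind these p-values came from the libraries of all groups, including those that chose the genes. With only the 2 VAD groups in the fit the adjusted p was 3.45e-08 for *Hspa1a* and 3.55e-08 for *Hspa1b* (limma). Without VAD WT replicates 2 and 4 the differences were -2.19 and -3.79. The sum of 10 surface epithelium and cornea genes was also lower, at 28199 to 37513 against at least 425091 in every VAD WT library. The part of surface epithelium in the falls of the paralogs, of their sum and of *Dnajb1* below was not tested.

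**Figure D2:**
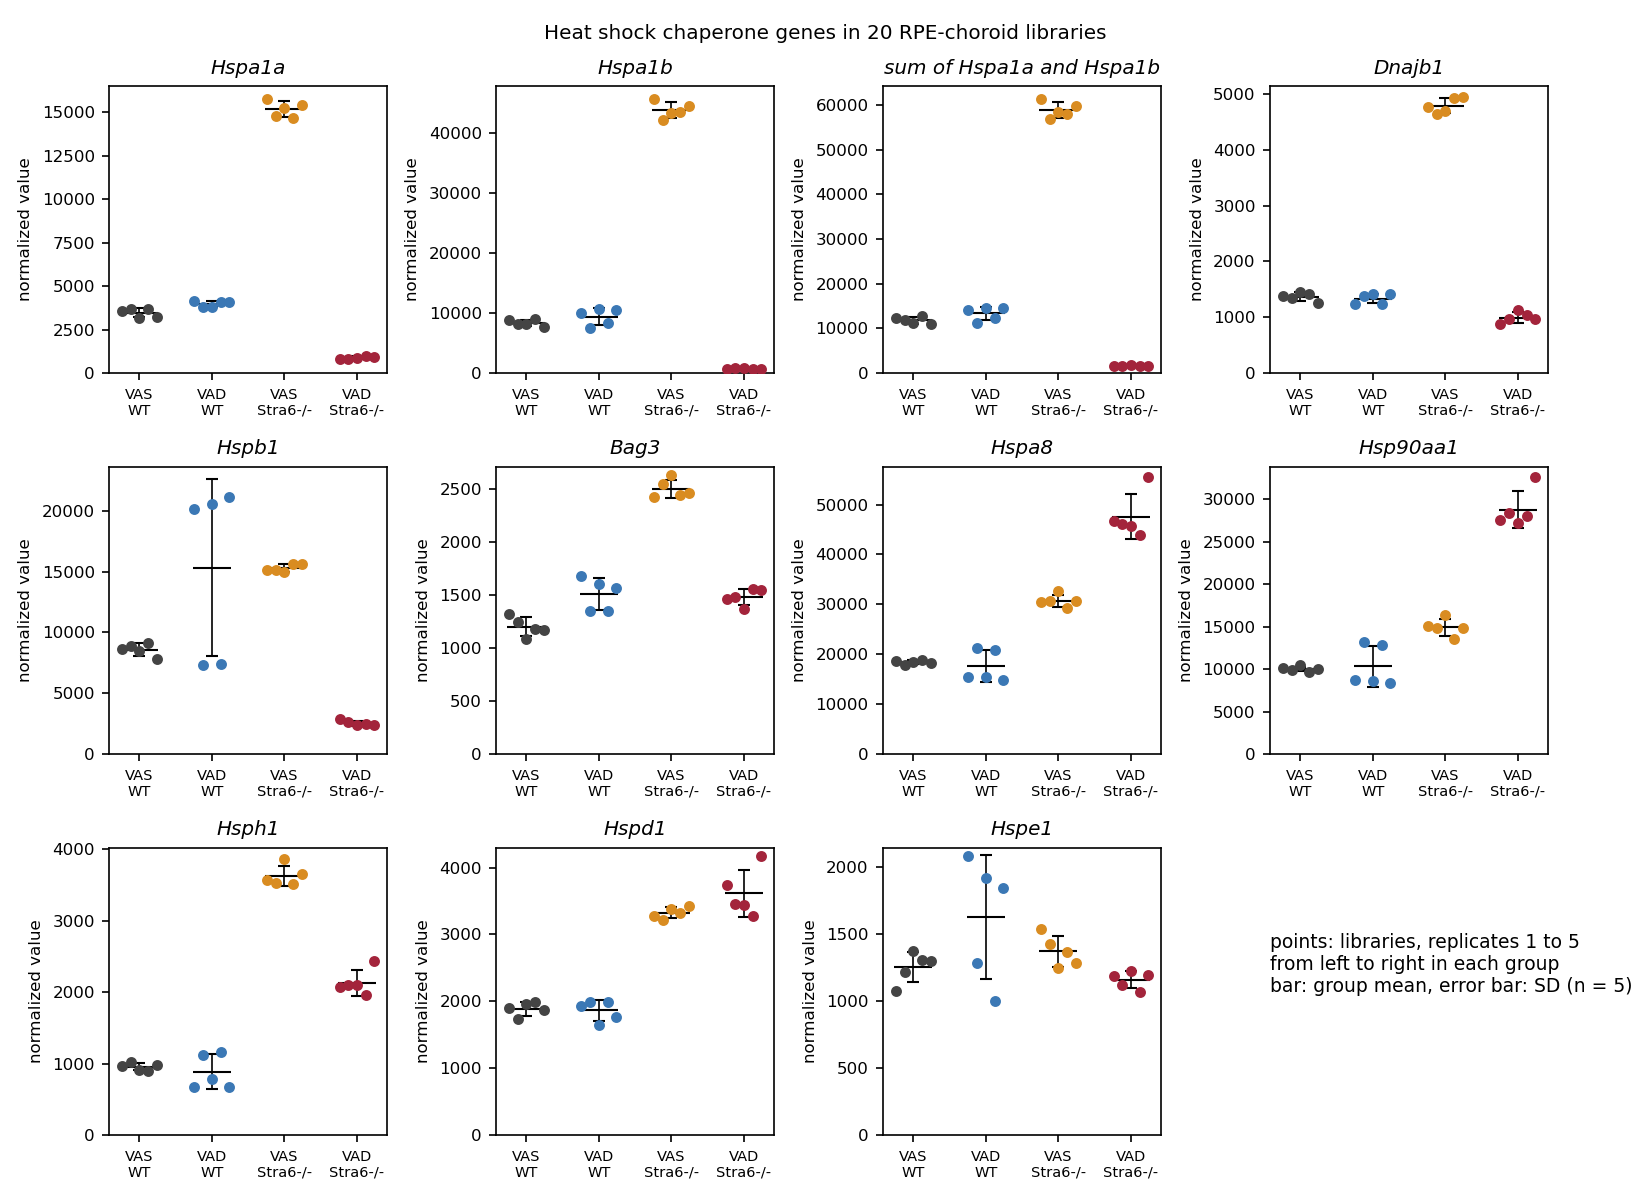
Normalized value (linear axis from 0) of the 10 genes and of the sum of Hspa1a and Hspa1b in 20 libraries, 1 panel per gene, with replicates 1 to 5 of each group from left to right and bars for mean and SD (n = 5). Hspa1a, Hspa1b and Dnajb1 stand highest in VAS Stra6-/-, Hspa8 and Hsp90aa1 highest in the libraries labelled VAD Stra6-/-, and Hspb1 splits VAD WT into replicates 2 and 4 (7304 and 7385) and replicates 1, 3 and 5 (20136 to 21121).

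Among the co-chaperones, *Dnajb1* (chromosome 8, 83608193 to 83612653), the J-domain partner of inducible HSP70, had its highest and lowest groups in common with the paralogs. Its values were 1375, 1337, 1449, 1423 and 1261 in VAS WT, 1243, 1372, 1409, 1238 and 1406 in VAD WT, 4764, 4648, 4689, 4917 and 4937 in VAS *Stra6-/-* and 870.5, 961, 1121, 1043 and 964 in the libraries labelled VAD *Stra6-/-*. VAS *Stra6-/-* lay 3.50-fold above VAS WT by means, the WT groups overlapped, and the libraries labelled VAD *Stra6-/-* lay below all others. Against VAD WT, *Dnajb1* fell by 0.43 on the log2 scale (standard error 0.07, limma, adjusted p = 1.33e-05), with every library below, and by 0.45 without VAD WT replicates 2 and 4. The fall was 1.34-fold between means, small beside the 12.5-fold of *Hspa1b*.

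*Hsph1* (chromosome 5, 149614287 to 149636376), which encodes the HSP110 nucleotide exchange factor that opens HSP70 for client release, had another pattern. In VAS WT its values were 969, 1019.6, 917, 891 and 980.1, and in VAD WT 677, 1126, 790.3, 1168 and 678. Those of VAS *Stra6-/-* were 3569, 3532, 3859, 3516 and 3654, and in the libraries labelled VAD *Stra6-/-* 2066, 2105, 2102, 1954 and 2431. The group highest in *Hspa1a* was again highest here, but the libraries labelled VAD *Stra6-/-* were second rather than last and did not overlap with either WT group. *Hsph1* rose in VAD *Stra6-/-* against VAD WT by 1.30 on the log2 scale (standard error 0.12, limma, adjusted p = 1.06e-08), and by 1.57 without VAD WT replicates 2 and 4, in which *Hsph1* was 1.60-fold higher than in replicates 1, 3 and 5.

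*Bag3* (chromosome 7, 128523616 to 128546981) encodes a nucleotide exchange factor that links HSP70 and small heat shock proteins to selective autophagy. Its values were 1322, 1247, 1081, 1175 and 1168 in VAS WT and 1675, 1343, 1605, 1351 and 1566 in VAD WT. Those of VAS *Stra6-/-* were 2419, 2545, 2625, 2442 and 2457, the highest of the series, and those of the libraries labelled VAD *Stra6-/-* were 1464, 1477, 1365, 1551 and 1541. Every VAD WT library (1343 to 1675) was above every VAS WT library (1081 to 1322). The 2 VAD groups overlapped, with a log2 difference of -0.02 (standard error 0.07, limma, adjusted p = 0.812) that did not pass the test. Without VAD WT replicates 2 and 4 the difference was -0.13 and did not pass either (limma, adjusted p = 0.0667).

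*Hspb1* (chromosome 5, 135887919 to 135889563), which encodes the small heat shock protein HSP27 (also HSP25) that binds unfolding proteins and actin and is abundant in stratified epithelia, split a single group. Its values in VAD WT were 20136, 7304, 20600.2, 7385 and 21121 in replicates 1 to 5. In VAS WT they were 8644, 8899, 8434, 9169 and 7809.6, in VAS *Stra6-/-* 15114, 15112, 14936, 15598 and 15628 and in the libraries labelled VAD *Stra6-/-* 2856, 2613, 2357, 2433 and 2365. The highest *Hspb1* of all 20 libraries was in VAD WT replicates 1, 3 and 5, replicates 2 and 4 lay below every VAS WT library, and the libraries labelled VAD *Stra6-/-* were below all others. *Hspb1* fell in VAD *Stra6-/-* against VAD WT by 2.44 on the log2 scale (standard error 0.24, limma, adjusted p = 1.53e-08), a 6.06-fold difference between means with every library below. With only the 2 VAD groups in the fit the adjusted p was 3.31e-04 (limma). Without VAD WT replicates 2 and 4 the difference was -3.03.

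Transcripts of the ocular surface moved with *Hspb1*. The summed value of 10 surface epithelium and cornea genes was 695802 to 827221 in VAS WT and 922640 to 958532 in VAS *Stra6-/-*. In VAD WT it was 1195620, 1163420 and 1174550 in replicates 1, 3 and 5 and 430266 and 425091 in replicates 2 and 4. In the libraries labelled VAD *Stra6-/-* it was 28199 to 37513, none of the 10 genes was at 0 in any whole group, and all 10 were lower than in VAD WT (limma). The libraries thus had the same order of groups by this sum as by *Hspb1*, with VAD WT replicates 2 and 4 in second lowest place on both. The part of surface epithelium in the *Hspb1* result was not tested, and in bulk tissue fewer cells of a type and less RNA per cell cannot be told apart.

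**Figure D3:**
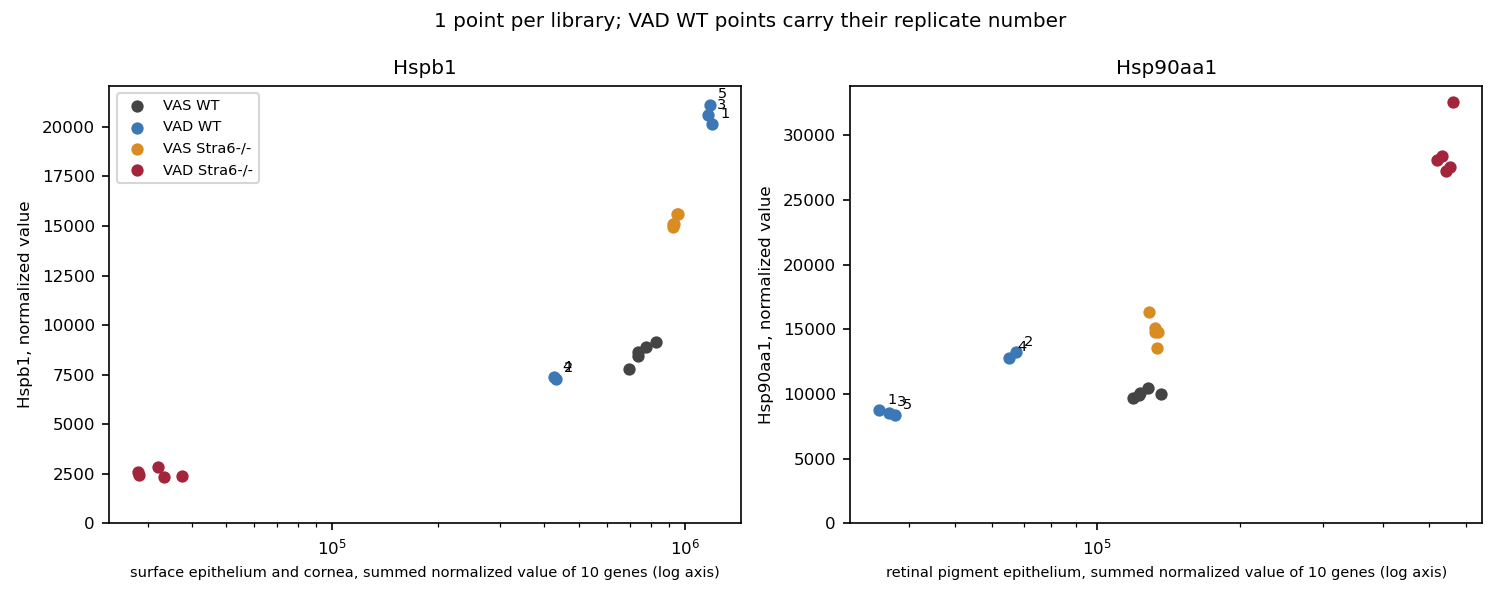
Left, normalized value of Hspb1 against the summed normalized value of 10 surface epithelium and cornea genes; right, Hsp90aa1 against the sum of 10 retinal pigment epithelium genes (horizontal axes on a log scale, vertical axes linear, 1 point per library, VAD WT points numbered by replicate). Hspb1 is at 2357 to 2856 where the surface sum is 28199 to 37513, and Hsp90aa1 at 27244 to 32582 where the RPE sum is 521244 to 563543.

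*Hspa8* and *Hsp90aa1*, which encode abundant cytosolic chaperones, ran opposite to *Hspb1* among the VAD libraries. *Hspa8* (chromosome 9, 40800984 to 40810087), the constitutive HSP70, had values of 18656, 17886, 18349, 18853 and 18316 in VAS WT and 15466, 21316, 15380.3, 20814 and 14846 in VAD WT. In VAS *Stra6-/-* its values were 30392, 30576, 32649, 29335 and 30604, and in the libraries labelled VAD *Stra6-/-* 46693, 46121, 45622, 43971 and 55474. The VAD WT libraries lay on both sides of VAS WT, with replicates 2 and 4 above it and the others below, and the 2 *Stra6-/-* groups lay above both, the VAD one higher. *Hspa8* rose in VAD *Stra6-/-* against VAD WT by 1.45 on the log2 scale (standard error 0.11, limma, adjusted p = 2.39e-10), 2.71-fold between means, and by 1.64 without VAD WT replicates 2 and 4.

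*Hsp90aa1* (chromosome 12, 110690605 to 110702728), the inducible HSP90 gene, had values of 10112, 9900.4, 10442, 9707 and 10006 in VAS WT and 8759, 13203, 8558, 12804 and 8371 in VAD WT. VAS *Stra6-/-* libraries had 15075, 14791, 16368, 13521 and 14814, and in the libraries labelled VAD *Stra6-/-* 27563, 28404, 27244, 28087 and 32582. The order of the groups and the split of VAD WT were those of *Hspa8*. *Hsp90aa1* rose in VAD *Stra6-/-* against VAD WT by 1.505 on the log2 scale (standard error 0.12, limma, adjusted p = 4.31e-10), 2.78-fold between means, and by 1.75 without VAD WT replicates 2 and 4. Its mean in VAS *Stra6-/-* was 1.49-fold that in VAS WT, against 5.24-fold for *Hspa1b*.

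The summed value of 10 RPE genes was also highest in the libraries labelled VAD *Stra6-/-*, but it did not follow these 2 genes in every group. It was 119216 to 136001 in VAS WT, 128233 to 134569 in VAS *Stra6-/-*, 34645 to 37377 in VAD WT replicates 1, 3 and 5, 65065 and 67387 in replicates 4 and 2, and 521244 to 563543 in the libraries labelled VAD *Stra6-/-*. Of the 10 RPE genes, 9 were higher in VAD *Stra6-/-* than in VAD WT and none lower (limma). The RPE sum in VAS *Stra6-/-* stayed within the range of VAS WT, where *Hspa8* was 1.67-fold and *Hsp90aa1* 1.49-fold higher by means. VAD WT replicates 2 and 4 had a lower RPE sum than every VAS WT library but more *Hspa8* and *Hsp90aa1*. Other tissue sums varied within VAD WT too, from 49635 to 176577 for sclera and fibroblast genes and from 4396 to 16041 for skeletal muscle genes. The part of RPE content, or of these tissues, in the VAD comparison was not tested.

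The mitochondrial pair *Hspd1*, the HSP60 ring subunit, and *Hspe1*, its HSP10 lid, share the promoter region printed above but did not vary together. *Hspd1* values were 1907, 1729, 1957, 1997 and 1865 in VAS WT, 1936, 1990.1, 1644, 1989.9 and 1763 in VAD WT, 3275, 3219.8, 3385, 3328 and 3424 in VAS *Stra6-/-* and 3745, 3449, 3445, 3279 and 4168 in the libraries labelled VAD *Stra6-/-*. Both *Stra6-/-* groups were above both WT groups, and neither the 2 WT groups nor the 2 *Stra6-/-* groups were separated. *Hspd1* rose in VAD *Stra6-/-* against VAD WT by 0.95 on the log2 scale (standard error 0.07, limma, adjusted p = 2.06e-10), 1.94-fold between means, and by 1.02 without VAD WT replicates 2 and 4.

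*Hspe1* values were 1078, 1219, 1371, 1305 and 1299.7 in VAS WT, 2086, 1284, 1919.7, 999 and 1846 in VAD WT, 1537, 1424, 1248, 1365 and 1285 in VAS *Stra6-/-* and 1191, 1121, 1222, 1071 and 1193 in the libraries labelled VAD *Stra6-/-*. Apart from VAD WT replicates 1, 3 and 5, the libraries of all groups lay between 999 and 1537. The mean was 1.09-fold higher in VAS *Stra6-/-* than in VAS WT, with overlapping libraries. Against VAD WT, *Hspe1* in VAD *Stra6-/-* was lower by a log2 difference of -0.44 (standard error 0.14, limma, adjusted p = 0.0133), although the groups overlapped. The call was lost with only the 2 VAD groups in the fit (limma, adjusted p = 0.0892) and without VAD WT replicate 1 (limma, adjusted p = 0.0512), and the difference was -0.75 without VAD WT replicates 2 and 4. Since the annotated ends of *Hspd1* and *Hspe1* overlap and the strandedness of the counting was not given in the sources used here, reads in those 112 bases cannot be assigned with certainty.

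Set side by side, the 10 genes fell into opposite movements in VAD *Stra6-/-* against VAD WT. Of the 10, 4 were called higher (*Hsph1*, *Hsp90aa1*, *Hspa8* and *Hspd1*) and 5 lower (*Hspa1a*, *Hspa1b*, *Hspb1*, *Dnajb1* and *Hspe1*), where 26.2% of all genes tested were called higher and 29.6% lower. The median log2 difference was -0.23 over the 10 genes and -0.05 over all genes. The libraries of the 2 groups did not overlap in 8 of the 10 genes, with the VAD *Stra6-/-* label on the upper side in 4 and on the lower side in 4, against 18.3% and 19% of all genes. In either direction 55.9% of all genes passed the test in this comparison.

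Between VAS *Stra6-/-* and VAS WT, 9 of the 10 genes had every VAS *Stra6-/-* library above every VAS WT library, where 19.3% of all genes did, and none had every library below, where 13.2% did. This is the comparison from which the genes came, so the count describes the choice. By means the folds ran from 5.24 for *Hspa1b*, 4.38 for *Hspa1a*, 3.80 for *Hsph1* and 3.50 for *Dnajb1* through 2.08 for *Bag3*, 1.78 for *Hspb1*, 1.76 for *Hspd1*, 1.67 for *Hspa8* and 1.49 for *Hsp90aa1* to 1.09 for *Hspe1*. The median log2 difference was 0.95, against 0.02 over all genes. The summed value of 13 immediate early genes, a fast transcriptional response that tissue handling can also set off, was 14655 to 16038 in VAS WT and 37116 to 39077 in VAS *Stra6-/-*, with 9 of the 13 higher and none lower (limma). It was 14599 to 16458 in the libraries labelled VAD *Stra6-/-*, and in VAD WT 10389 to 10881 in replicates 1, 3 and 5 and 25522 and 26228 in the other 2. The sum of 10 skeletal muscle genes was also higher in VAS *Stra6-/-*, at 35660 to 40118, than in VAS WT, at 14203 to 17354, and the part of either in the chaperone differences was not tested.

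**Figure D4:**
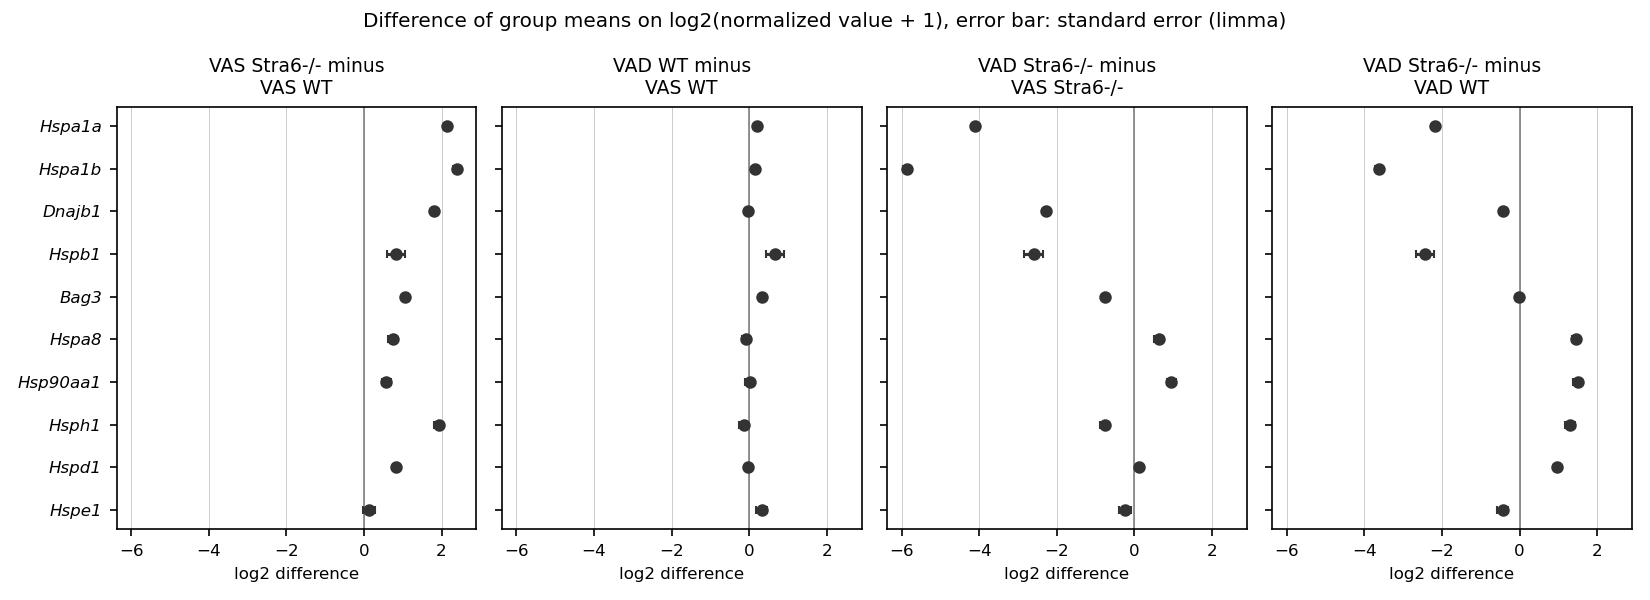
Log2 difference of group means, on log2(normalized value + 1), of the 10 genes in 4 comparisons, with standard errors from limma. In VAS Stra6-/- minus VAS WT all 10 lie right of 0; in VAD Stra6-/- minus VAD WT Hspa1b (-3.64) and Hsp90aa1 (1.505) mark the ends.

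The diet comparison in WT separated few of the genes. Of the 10, only *Hspa1a* and *Bag3* had every VAD WT library above every VAS WT library, where 2.13% of all genes did, none lay wholly below, where 4.21% did, and the other 8 overlapped. The median log2 difference was 0.08, against 0.00166 over all genes. *Hspa1a* was 1.15-fold and *Bag3* 1.26-fold higher by means. Without VAD WT replicates 2 and 4 the mean of *Hspb1* in VAD WT was 20619, against 7344 in those 2 libraries and 8591 in VAS WT, and for *Hspe1* the means were 1950.3, 1142 and 1255. *Hsp90aa1* showed the reverse, with 8563, 13004 and 10033, as did *Hspa8*, with 15231, 21065 and 18412. The near-equal group means of *Hsp90aa1* and *Hspa8* by diet thus joined VAD WT libraries that lay on either side of VAS WT.

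The libraries labelled VAD *Stra6-/-* differed from VAS *Stra6-/-* in nearly all of the genes. As a limit, *Stra6* itself was higher in the former, as was the RPE sum (521244 to 563543 against 128233 to 134569). Whether the 2 groups share 1 genotype was not tested beyond the labels. In 7 of the 10 (*Hspa1a*, *Hspa1b*, *Hsph1*, *Dnajb1*, *Hspb1*, *Hspe1* and *Bag3*) all libraries labelled VAD *Stra6-/-* lay below all VAS *Stra6-/-* libraries, where 26.8% of all genes were, and in 2 (*Hsp90aa1* and *Hspa8*) they lay above, where 24.5% were. *Hspd1* overlapped. The falls ran from 58.4-fold for *Hspa1b* and 17.2-fold for *Hspa1a* through 6.05-fold for *Hspb1*, 4.83-fold for *Dnajb1*, 1.70-fold for *Hsph1* and 1.69-fold for *Bag3* to 1.18-fold for *Hspe1*, and *Hsp90aa1* was 1.93-fold and *Hspa8* 1.55-fold higher. The median was -0.76, against -0.07 over all genes. The sum of 10 surface epithelium and cornea genes was 28199 to 37513 in the libraries labelled VAD *Stra6-/-* and 922640 to 958532 in VAS *Stra6-/-*. *Xist* was at 3570 to 4280 and 15320 to 18052 in the same order, and *Ddx3y* at 741 to 970 and 0 to 1.02. The part of tissue content and of sex in the differences of the 10 genes was not tested. Both diet comparisons share libraries with the comparison that chose the genes, so no test was made.

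Together the 10 genes took 0.327% ± 0.00683 of all normalized values for VAS WT, 0.361% ± 0.0130 for VAD WT, 0.737% ± 0.0163 for VAS *Stra6-/-* and 0.499% ± 0.0310 for the libraries labelled VAD *Stra6-/-* (SD, n = 5 each). Within that total, *Hspa1b* made up 15.05% in VAS WT, 32.3% in VAS *Stra6-/-* and 0.839% in the libraries labelled VAD *Stra6-/-*. *Hspa8* made up 33.2%, 22.7% and 52.9% in the same groups, and *Hsp90aa1* 18.1%, 11.004% and 32.0%. The libraries labelled VAD *Stra6-/-* thus carried more chaperone transcript than either WT group, most of it from *Hspa8* and *Hsp90aa1*.

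Per kilobase of annotated exon, a scale on which genes can be set beside each other, mean levels in VAS WT ran from 8333 for *Hspb1* and 7691 for *Hspa8* through 2983 for *Hspa1b*, 2968 for *Hsp90aa1*, 1621 for *Hspe1*, 1165 for *Hspa1a* and 780.4 for *Hspd1* to 468 for *Bag3*, 427 for *Dnajb1* and 226 for *Hsph1*. The level of *Hspa1b* per kilobase in VAS *Stra6-/-* was 15620 and led the order, ahead of *Hspb1* at 14818 and *Hspa8* at 12828. In the libraries labelled VAD *Stra6-/-* *Hspa8* led at 19873 per kilobase, followed by *Hsp90aa1* at 8511, and the paralogs *Hspa1a* (297) and *Hspa1b* (267) came last. These levels use the union of annotated exons and not the transcripts in use.

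The 5 genes whose profile was most like the mean standardized profile of the 10, among 12289 other genes over 20 libraries, were *Myo1e* (Pearson r = 0.966), *Golph3* (0.966), *Rab22a* (0.961), *Kpnb1* (0.957) and *Rock2* (0.957). The 20 libraries fall into 4 groups and share tissue composition within them, so these values describe the pattern only. The 10 genes were taken because most stood higher in VAS *Stra6-/-* than in VAS WT. A mean profile that is high there, and genes like it, follow from that choice. Each of the 5 was highest in VAS *Stra6-/-*, as with *Myo1e*, which encodes an unconventional myosin and was at 1069 ± 74.4, 1319.6 ± 225, 2730.1 ± 172 and 1229 ± 74.5 (SD, n = 5) in VAS WT, VAD WT, VAS *Stra6-/-* and the libraries labelled VAD *Stra6-/-*.

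The partners of these chaperones were followed in 9 lists with 102 genes, none of them among the 10, all of which passed the filter. In VAD *Stra6-/-* against VAD WT, 53 of the 102 were higher and 19 lower (limma, adjusted p under 0.05), where 26.2% and 29.6% of all genes were, with a median log2 difference of 0.26. The counts were 56 and 28 without VAD WT replicates 2 and 4. All 19 endoplasmic reticulum chaperones rose, with a median of 1.00. Among them *Hspa5*, the HSP70 of that compartment known as BiP, had 17932 ± 1265 against 6381 ± 372 (SD, n = 5 each), a log2 difference of 1.49 (standard error 0.07, limma, adjusted p = 5.14e-14). Its J-domain partners *Dnajb9* and *Dnajc3* rose by 1.81 and 1.42 on the log2 scale (limma, adjusted p = 7.12e-10 and 4.48e-11). Markers of other cell types were higher in the same comparison, with 9 of 10 RPE genes (median log2 difference 3.299), 9 of 10 sclera and fibroblast genes (1.69) and 9 of 10 macrophage genes (1.86), and their part in the rise of these chaperones was not tested.

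Genes of the heat shock factor list were divided in that comparison, 3 higher and 3 lower of 9. *Hsf1*, the factor itself, was lower, at 463 ± 32.2 against 678 ± 59.2 (SD, n = 5 each; log2 difference -0.55, limma, adjusted p = 5.18e-06), as were *Dedd2*, a gene with a death effector domain (-1.80, limma, adjusted p = 3.22e-10), and *Ier5*, an immediate early gene that feeds back on HSF1 (-1.01, limma, adjusted p = 1.55e-07). *Hsf2* did not pass, at 286 ± 36.5 against 258 ± 72.5 (SD, n = 5 each). The exchange factor *Bag2* and the prefoldin subunit *Pfdn2* fell by 1.61 and 1.15 on the log2 scale (limma, adjusted p = 6.84e-09 and 2.33e-06). Of 12 genes of cytosolic HSP90 and its co-chaperones 7 were higher and 1 lower, among them the constitutive *Hsp90ab1* (0.50, limma, adjusted p = 7.13e-06) and *Stip1*, which joins HSP70 to HSP90 (0.27, limma, adjusted p = 0.00262). The other lists moved both ways or little: of 7 cytosolic HSP70 and HSP110 genes 4 were higher and 3 lower, of 18 J-domain proteins 5 and 3, of 14 chaperonin and prefoldin genes 4 and 5, of 6 BAG proteins and exchange factors 2 and 2, of 10 mitochondrial genes 5 and 2, and of 7 small heat shock proteins 4 and 0. Mitochondrial *Hspa9*, which works with *Hspd1* and *Hspe1*, rose by 1.14 on the log2 scale (limma, adjusted p = 3.33e-10).

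In VAS *Stra6-/-* against VAS WT, 34 of the 102 partners were higher and 7 lower, where 15.9% and 10.8% of all genes were. *Fkbp5*, an HSP90 co-chaperone and glucocorticoid target, had 3481 ± 266 against 347 ± 55.2 (SD, n = 5 each), a log2 difference of 3.33 (standard error 0.38, limma, adjusted p = 1.51e-06). *Fkbp5* also split the VAD WT libraries, at 2362 and 2303 in replicates 2 and 4 and at 480, 464 and 364 in replicates 1, 3 and 5. *Hsp90ab1* and *Stip1* rose by 0.77 and 0.58 on the log2 scale (limma, adjusted p = 1.85e-07 and 2.25e-06), and the small heat shock gene *Hspb7* and *Dnajb9* by 1.60 and 1.29 (limma, adjusted p = 6.31e-04 and 9.98e-07). *Hspb7* is known from heart and skeletal muscle, and all 10 skeletal muscle markers were higher in this comparison (median log2 difference 1.322), whose part in the *Hspb7* result was not tested. Of 18 J-domain proteins, the class of *Dnajb1*, 8 were higher and none lower, of 12 HSP90 and co-chaperone genes 5 and 1, and of 9 in the heat shock factor list 4 and 1. *Hspa5* and *Hspa9* rose by 0.54 and 0.37 (limma, adjusted p = 2.52e-06 and 0.00277). *Cryaa*, the lens crystallin, fell by 2.79 (limma, adjusted p = 1.36e-06), and 9 of 10 lens marker genes were lower (limma), with sums of 3781 to 4872 in VAS WT and 857 to 965 in VAS *Stra6-/-*, whose part in the *Cryaa* result was not tested. *Hsf2* and the endothelial HSP70 relative *Hspa12b* fell by 0.88 and 0.67 on the log2 scale (limma, adjusted p = 6.89e-04 and 0.00114), and *Hsf1* was at 592 ± 25.1 against 613 ± 52.1 (SD, n = 5 each) without passing the test. The counts were 52 higher and 16 lower with only these 2 groups in the fit, and 12 were lower without VAD WT replicates 2 and 4.

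In VAD *Stra6-/-* against VAS *Stra6-/-*, 42 partners were higher and 16 lower, where 24.4% and 28.8% of all genes were. Of the 19 endoplasmic reticulum genes 18 rose, including *Hspa5* by 0.77, the collagen chaperone *Serpinh1* by 1.195 and the exchange factor *Sil1* by 1.12 on the log2 scale (limma, adjusted p = 1.63e-09, 4.19e-08 and 2.58e-10). *Serpinh1* serves collagen folding, and the sum of 10 sclera and fibroblast genes was 233061 to 246509 in the libraries labelled VAD *Stra6-/-* against 44521 to 45665 in VAS *Stra6-/-*, whose part in this rise was not tested. *Cryaa* rose by 1.14 (limma, adjusted p = 0.00446). *Dedd2*, *Ier5*, *Bag2* and *Hsf1* fell by 2.36, 1.69, 1.66 and 0.36 on the log2 scale (limma, adjusted p = 3.56e-12, 5.13e-11, 3.85e-09 and 7.21e-04), in the direction of *Hspa1a*, *Hspa1b* and *Dnajb1*. Their lists were divided, with 3 higher and 3 lower of 9 in the heat shock factor list. Of 6 BAG proteins and exchange factors 2 were higher and 2 lower. *Hsf2* was among the higher ones, by 0.52 on the log2 scale (limma, adjusted p = 0.0164).

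In VAD WT against VAS WT, 8 partners were higher and 3 lower, where 3.29% and 5.50% of all genes were. The largest differences that passed without overlap were rises of *Dnaja4*, *Clpx* and *Sugt1* by 0.44, 0.38 and 0.37 and falls of *Cryaa*, *Calr* and *Cryab* by 1.60, 0.31 and 0.23 on the log2 scale. These counts rested on which VAD WT libraries were used: without replicates 2 and 4 they were 36 higher and 23 lower, without replicate 4 alone 14 and 6, and with only the 2 groups in the fit 1 and 1.

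**Figure D5:**
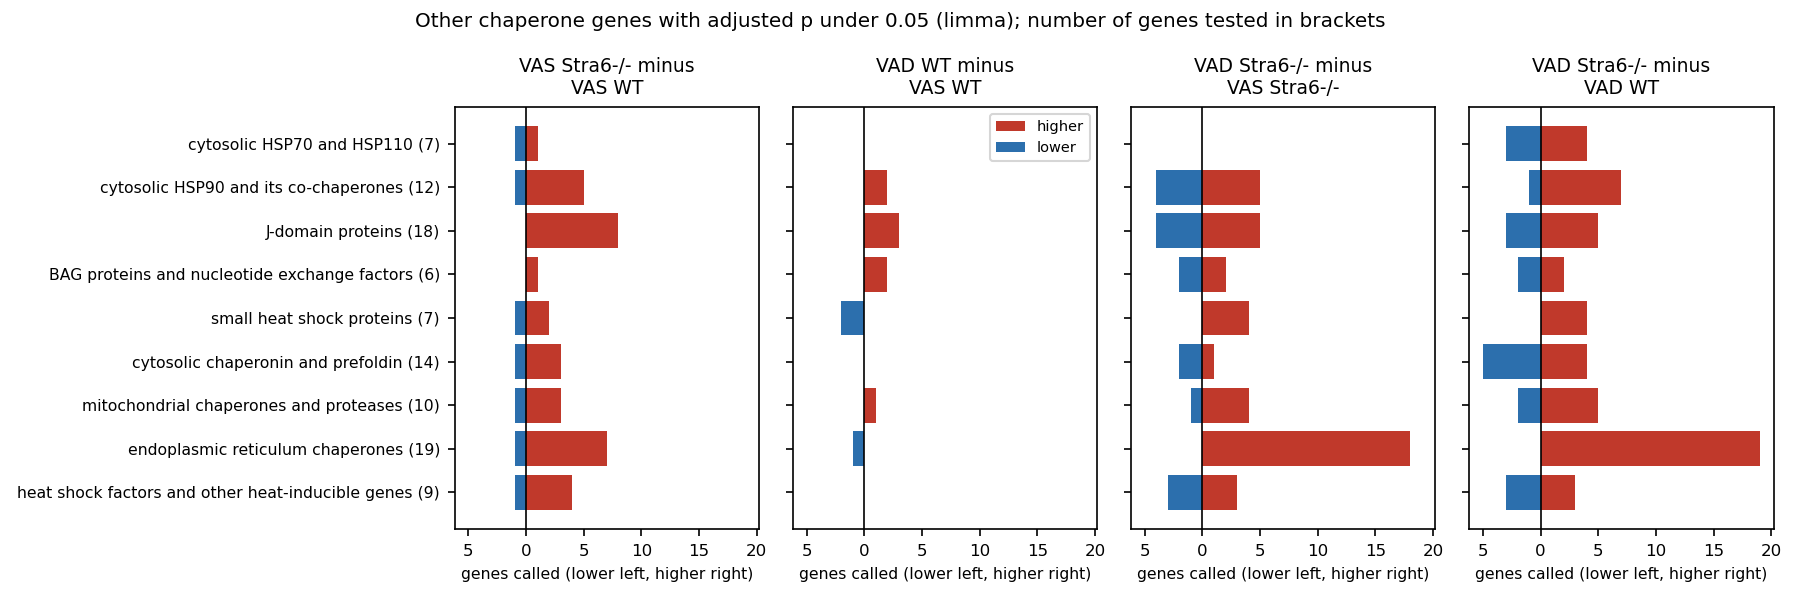
Number of genes called higher (red, to the right) or lower (blue, to the left) at an adjusted p under 0.05 (limma) in 9 lists of chaperone partners, in 4 comparisons; the number of genes tested stands in brackets. All 19 endoplasmic reticulum chaperones are higher in VAD Stra6-/- than in VAD WT, and 3 of 9 genes of the heat shock factor list are lower.

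The difference between the genotype labels depended on diet in 51 of the 102 partners, 31 with a positive and 20 with a negative interaction (limma), where 44.2% of all genes had one in either direction. The counts were 38 and 30 without VAD WT replicates 2 and 4. The limit that *Stra6* runs against its label on the VAD diet, where RPE sums differ too, applies to all of them. Of the 19 endoplasmic reticulum chaperones 16 had a positive one, *Hspa5* at 0.95 among them (standard error 0.09, limma, adjusted p = 2.82e-08). *Ier5* and *Dedd2* had negative ones of -1.78 and -2.41 (limma, adjusted p = 1.05e-08 and 1.51e-09). For the 10 chaperone genes the same interaction contains the libraries they were chosen from and was not tested.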

How the data were processed

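RNA-seq values of 20 RPE-choroid samples in 4 groups of 5 were analysed. Per the processing notes, the authors used STAR 2.5.3a (alignment, GRCm38/mm10), RSEM 1.2.30 (gene counts) and DESeq2 1.32.0 (normalization). The deposited values are a signal, each gene's count over a size factor that is common to the library. In all 20 libraries 100% of values are whole multiples of 1 step (tolerance 0.001 reads), and the reads of 19 were used as counts. In VAD *Stra6-/-* replicate 1 the step was too near 1, so this library was left out of count tests, which had 4 libraries in that group. Strandedness was not given in the sources used here.

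The 10 genes, the lists of partners and markers and the tests were chosen with earlier results of these data known. Genes with at least 5 reads over all libraries were kept, and limma 3.58.1 (R 4.3.3, intensity trend) was fitted on log2(value + 1) with 4 group means and Benjamini-Hochberg adjustment over 18807 genes. The added 1 understates fold changes of low genes. Fold values between means are on the linear scale. The 10 genes were tested only in VAD *Stra6-/-* against VAD WT, in a fit whose spread came from all 20 libraries. The sum of *Hspa1a* and *Hspa1b* was tested with an exact permutation test (scipy 1.17.1). Nothing shows that samples were independent beyond the labels, so p-values measure the spread between these samples. Partners named were *Hsf1*, *Hsf2*, *Hsp90ab1*, *Hspa5*, *Hspa9*, *Stip1* and, for each comparison and direction, the 3 with the largest log2 change among those called, with a mean of at least 100 in 1 group and without overlap; values of named partners in other comparisons were added where they bear on the 10 genes, after they were seen. Alternatives were edgeR 4.0.16 and DESeq2 1.42.0 on recovered reads, TMM rescaling, pseudocounts of 0.5 and 4, no filter, only 2 groups in the fit, a replicate block, VAD WT without replicates 2 and 4, and each library left out. The code was tested on simulated data. Positions are from GENCODE M21. Counts of *Hspa8*, *Hsp90aa1*, *Hspd1* and *Hspe1* are uncertain to the extent that their processed pseudogenes took or gave reads.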

Additional observations from a re-analysis of the deposited data

Results flagged for a closer look

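In a group of 5 libraries, 1 library can lie far from the others. Of 136 gene-and-group combinations 7 met Dixon's criterion for this, where chance flags about 1 in 20, or 6.8 of them. The number of flags was thus about that given by chance, and those below are a description. Replicate 5 of the libraries labelled VAD *Stra6-/-* stood above its group for *Hsp90aa1* (32582), *Hspa8* (55474) and *Hsp90ab1* (26095), and was also the highest of that group for *Hspd1* and *Hsph1*. Without it, *Hsp90aa1* and *Hspa8* were still higher than in VAD WT in every library. Replicate 3 of that group stood above the others for *Dedd2* (218). In VAS WT, replicate 4 was low for *Cryaa* (3217) and replicate 3 high for *Hsf2* (480.5), and in VAS *Stra6-/-* replicate 4 was high for *Hsf1* (637).

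In several of the 10 genes the difference between the libraries labelled *Stra6-/-* and WT pointed opposite ways on the 2 diets in every library. On the VAD diet *Stra6* ran against its label, and RPE sums differed too. On the log2 scale, VAD *Stra6-/-* against VAD WT minus VAS *Stra6-/-* against VAS WT was -4.31 for *Hspa1a*, -6.03 for *Hspa1b*, -5.35 for their sum, -2.24 for *Dnajb1* and -3.27 for *Hspb1*. For *Hspa1a* and *Bag3* the diet difference also pointed opposite ways in the 2 genotype labels, by -4.31 and -1.08. These differences were not tested, since they contain the libraries from which the genes were chosen.

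Among the named partners, the genotype-by-diet interaction passed an adjusted p of 0.05 (limma) in 20 genes. It was positive for *Cryaa* (2.74), *Sil1* (1.37), *Hsf2* (1.07), *Cryab* (0.99), *Hspa5* (0.95), *Serpinh1* (0.89), *Dnajc3* (0.86), *Calr* (0.80), *Hspa9* (0.77) and *Dnajb9* (0.51). It was negative for *Dedd2* (-2.41), *Fkbp5* (-2.28), *Ier5* (-1.78), *Bag2* (-1.74), *Dnaja4* (-1.36), *Pfdn2* (-1.28), *Hsf1* (-0.50), *Clpx* (-0.43), *Stip1* (-0.32) and *Hsp90ab1* (-0.27). For *Fkbp5* the VAD WT libraries that enter it ranged from 364 to 2362.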

How the results depend on the processing

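The 9 calls among the 10 chaperone genes kept their direction under every alternative run, and 8 of them passed the test in all; *Hspe1* did not pass with only 2 groups in the fit or without VAD WT replicate 1. Adjusted p-values were larger with only the 2 VAD groups in the fit, up to 0.00125 (limma, *Dnajb1*) among those 8. With a library left out in turn, 4 genes were higher and 4 to 5 lower. The sum of *Hspa1a* and *Hspa1b* ranged from -3.09 to -3.00; with a replicate block (sign flips over 5 pairs) the difference was -3.03 with an exact p of 0.0625, the smallest it allows. Replicate numbers did not pair samples (correlations of same-numbered deviations from -0.0686 to 0.0654), and the block changed no other call on the 10 genes or count of partners beyond 1.5 times. For partners, DESeq2 called 6 lower in VAD WT against VAS WT (limma 3). With only 2 groups in the fit the counts were 52 higher and 16 lower in VAS *Stra6-/-* against VAS WT (34 and 7 with all groups) and 1 and 1 in VAD WT against VAS WT (8 and 3), where calls of *Dnaja4*, *Clpx*, *Sugt1*, *Cryaa* and *Cryab* were lost. Without VAD WT replicates 2 and 4 they were 12 lower in the former and 36 higher and 23 lower in the latter. With each library left out, VAD WT against VAS WT had 5 to 14 higher and 2 to 7 lower: 14 and 6 without VAD WT replicate 4, 7 lower without replicate 2, 5 lower without replicate 3, and 5 higher without VAS WT replicate 1, 3, 4 or 5. The call of *Cryab* there was also lost in edgeR (adjusted p = 0.0662) and without any VAS WT replicate or VAD WT replicate 2 or 4. The cause was not tested. No called value reversed under any alternative run. The difference of *Bag3*, which was not called, ranged from -0.06 to 0.02 with a library left out and was above 0 without VAD WT replicate 1 or 3 or VAD *Stra6-/-* replicate 3. The lowest normalized value of any of the 10 genes in any library was 677, so that none of them was near the filter on low values.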
